A study of Homo sapiens with 6 samples.

Results

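Immediate early genes are the transcripts that a cell makes first after a growth factor, serum or a physical stimulus reaches it, before any new protein is needed. Their promoters are held ready by factors such as SRF, the ELK proteins and CREB, which the ERK, p38 and JNK kinases and RhoA-actin signalling act on, and their transcripts are short-lived. Many of them encode transcription factors, of which the EGR zinc fingers bind GC-rich sites and the FOS and JUN proteins pair to form AP-1. In pluripotent stem cells, FGF2 acts through ERK, and heparin is a cofactor for FGF binding to its receptors.

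The 10 immediate early genes described here, EGR1, EGR2, EGR3, FOS, FOSB, FOSL1, JUN, JUNB, IER2 and IER3, were taken by symbol from the 19977 genes counted in each library, and all 10 had enough counts to be tested. The libraries were made from wild-type NCRM-1, a human iPSC line derived from CD34+ cord blood cells with episomal plasmids. Cells were seeded singly, with the ROCK inhibitor Y-27632, into suspension bioreactors, grown as aggregates for 4 days, and given 50% fresh medium on day 2. The treated medium was E8 with 10 mg/ml polyethylene glycol plus heparin sodium salt at 0.1 µg/ml (labelled PEG and HS, 3 libraries), and the comparison medium was E8 alone (Control, 3 libraries). The labels are at odds with themselves, because their treatment protocol describes the additives for all 6 libraries, and the treatment entry of each library was followed here. They also read as 1 bioreactor per medium, so the medium cannot be told apart from its vessel, and the p-values may measure only the spread between samples of the same culture.

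Libraries held 26991279 to 36185138 counts, with overlapping ranges in the media, and mitochondrial genes took 4.54% to 5.16%. All 10 pluripotent stem cell markers examined were above 1 CPM in each library, and their summed level was 10347 to 10509 CPM with PEG and HS and 10409 to 10566 CPM in Control. The markers were not unchanged one by one, as 4 were called higher and 4 lower, each without overlap. These were 80% of the 10 markers, against 25.3% of all genes tested. CPM are the counts of a gene scaled to a common library total, adjusted with TMM for single genes. They are not corrected for gene length. Differences were tested with edgeR's quasi-likelihood test over the 16505 genes with at least 10 counts, and a gene was called at a Benjamini-Hochberg adjusted p under 0.05. Log2 ratios, or fold changes on the log2 scale, are PEG and HS over Control, so those above 0 mean more transcript with the additives. Errors are SD (n = 3) for levels and SE for log2 ratios. For any single gene, 3 libraries against 3 allow no two-sided exact permutation p below 0.1.

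The promoters of EGR1 and EGR2 are shown because EGR1, EGR2 and EGR3 had the largest absolute log2 ratios of the 10 genes, and that of FOS because it moved the opposite way. Each stretch covers the bases from 150 to 11 before an annotated start (RefSeq, GRCh38.p14), read 5′ to 3′ on the gene's strand. Capitals mark matches to the CArG box, the sequence that SRF binds, and to TGACGT on either strand (ACGTCA on the other), the core of the cAMP response element that CREB and ATF proteins bind.
EGR1 promoter (chr5:138465329-138465468, plus strand): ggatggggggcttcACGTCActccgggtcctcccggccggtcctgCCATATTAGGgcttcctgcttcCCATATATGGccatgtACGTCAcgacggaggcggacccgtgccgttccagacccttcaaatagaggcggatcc
EGR2 promoter (chr10:62816377-62816516, minus strand): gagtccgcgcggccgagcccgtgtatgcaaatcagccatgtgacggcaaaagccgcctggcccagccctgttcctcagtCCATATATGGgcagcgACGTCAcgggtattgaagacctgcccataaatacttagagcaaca
FOS promoter (chr14:75278678-75278817, plus strand): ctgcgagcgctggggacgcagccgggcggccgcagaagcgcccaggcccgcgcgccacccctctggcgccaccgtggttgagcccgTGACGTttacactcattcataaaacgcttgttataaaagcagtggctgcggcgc

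RefSeq windows from 250 bases before to 50 after a start were found for 7 of the 10 genes, and EGR3, FOSL1 and IER3 had no entry. The EGR1 window held 2 CArG boxes, CCATATTAGG at -105 to -96 and CCATATATGG at -83 to -74, counting the base before the start as -1. Of all 35116 windows of this length, 454 (1.29%) held a CArG box and 11 (0.0313%) held 2 or more. EGR2 has 3 annotated starts, and the window of the innermost start held 1 CArG box, CCATATATGG again, at -71 to -62. The windows of FOS, FOSB, JUN, JUNB and IER2 held no match to it. TGACGT matched at 2 places in EGR1 and once each in EGR2, FOS and FOSB, against 7.98% of all windows. TGACTCA, the AP-1 site, and GCGTGGGCG and GCGGGGGCG, sites that EGR proteins bind, were found in none of these windows on either strand. They occurred in 4.95%, 0.795% and 5.07% of all windows. A match is a run of letters and not a measured binding site, and the absence of a match speaks only for this window. Bases more than 250 before a start were not searched in FOS or any other gene, so the genes cannot be divided by CArG boxes from these windows.

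**Figure D1:**
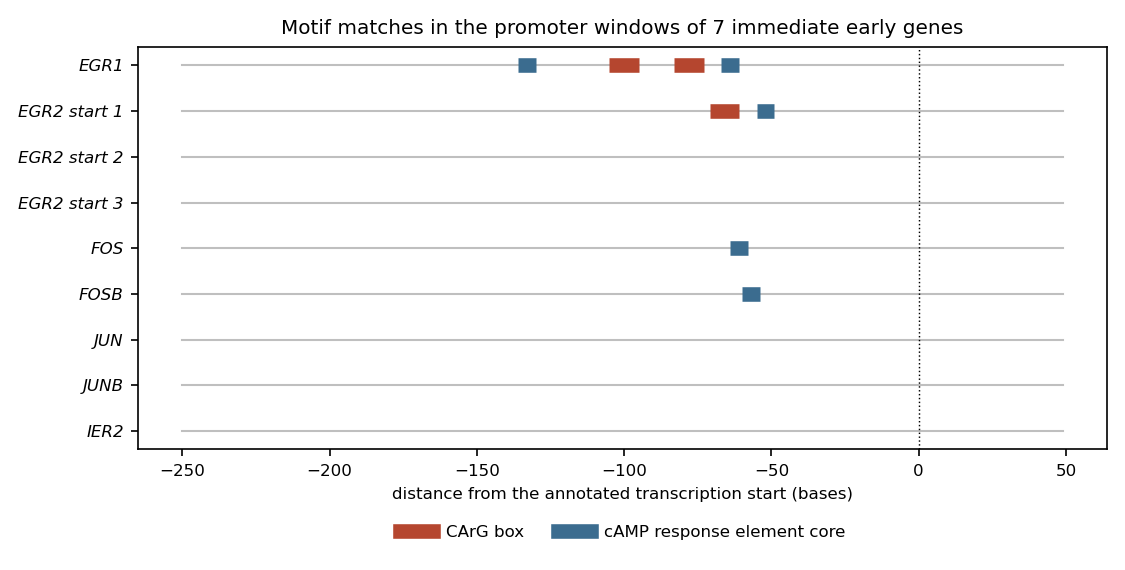
Position of motif matches in the promoter windows of 7 immediate early genes, as distance in bases from the annotated transcription start (dotted line). Only the windows of EGR1 and of the first listed EGR2 start hold CArG boxes, with 2 and 1 matches, whereas the cAMP response element core also lies in the windows of FOS and FOSB. Bases more than 250 before a start were not searched.

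Of the 10 genes, 4 were called higher in PEG and HS (FOS, FOSL1, IER2 and IER3), 3 were called lower (EGR1, EGR2 and EGR3), and JUN, JUNB and FOSB did not pass the test. Among all genes tested, 12.2% were called higher, 13.1% lower and 25.3% in either direction. Between the media, CPM values were separate for the 7 called genes and overlapped for the other 3, while 39.3% of all genes tested did not overlap (19.5% with PEG and HS above and 19.8% below). The median log2 ratio of the 10 genes was -0.028 and that of all genes tested 0.0031. The median absolute log2 ratio was 0.53 for the 10 genes and 0.12 for all genes tested. An absolute log2 ratio of at least 1 with a call was reached by EGR1 and EGR3, and by 2.02% of all genes tested. In these bulk samples, fewer cells that make a transcript and less transcript per cell cannot be told apart.

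**Figure D2:**
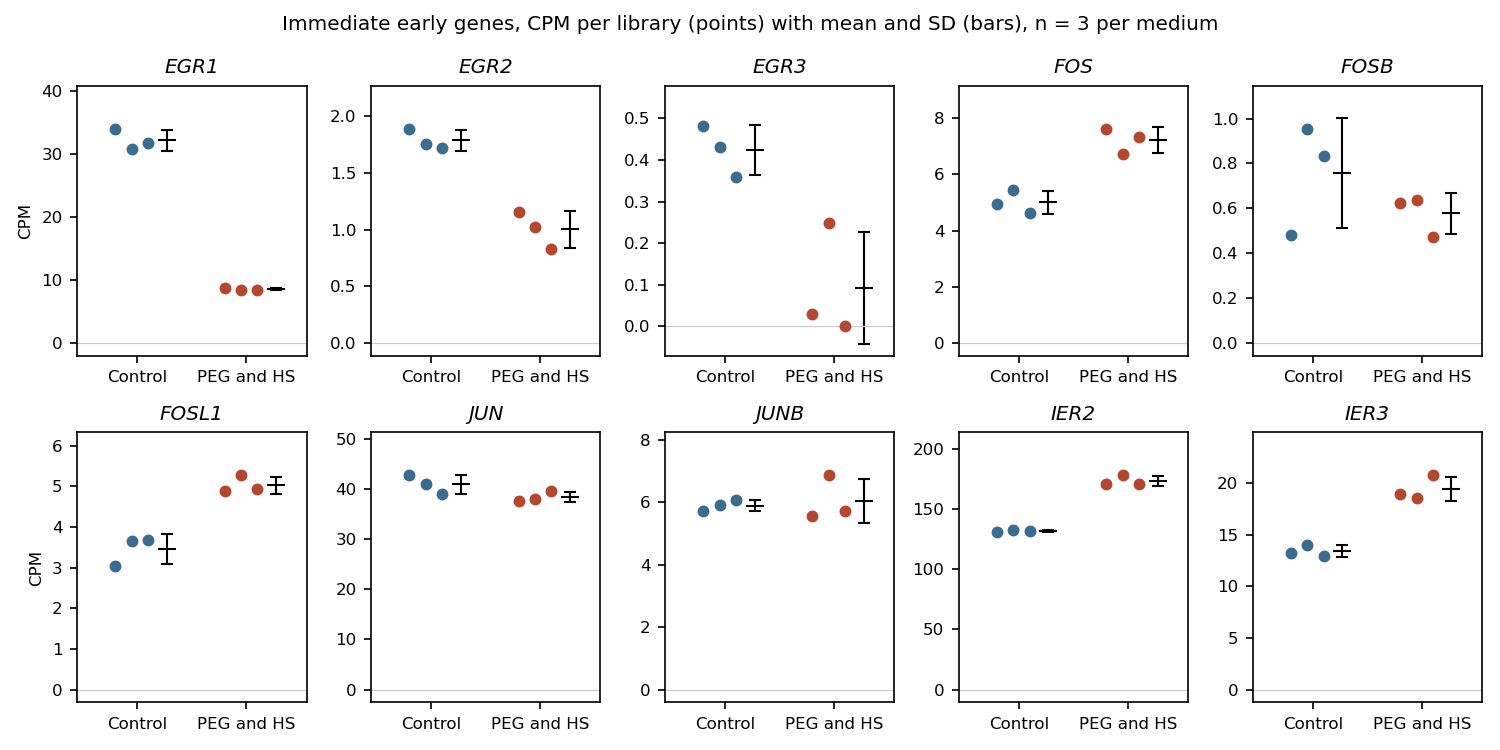
CPM of each immediate early gene in each library (points) with mean and SD (bars), 3 libraries per medium, on linear axes that differ between genes. EGR1, EGR2 and EGR3 lie lower in every PEG and HS library, FOS, FOSL1, IER2 and IER3 lie higher in every PEG and HS library, and FOSB, JUN and JUNB overlap.

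EGR1 (ENSG00000120738, chromosome 5, 138465479 to 138469303 of GRCh38) encodes the zinc finger factor best known as a direct readout of ERK and SRF activity. It had 8.75, 8.46 and 8.45 CPM in PEG and HS replicates 1 to 3 and 34.0, 30.8 and 31.6 CPM in the Control replicates. The PEG and HS libraries lay close together and far below every Control library. Its level was thus 8.55 ± 0.169 CPM with PEG and HS and 32.1 ± 1.63 CPM in Control (n = 3 each), 3.75-fold lower with the additives (log2 ratio -1.91, SE 0.060, adjusted p = 4.86e-12, edgeR). Of all genes tested, 1.23% had a larger absolute log2 ratio. Over all other settings and left-out libraries the log2 ratio of EGR1 stayed between -1.94 and -1.87.

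EGR2 (ENSG00000122877, chromosome 10, 62811996 to 62819167), also named KROX20 and known for its roles in the hindbrain and in myelin, had 1.16, 1.03 and 0.827 CPM with PEG and HS. In Control it had 1.89, 1.75 and 1.72 CPM, so that each PEG and HS library was lower than each Control library. The change was 1.78-fold (log2 ratio -0.83, SE 0.21, adjusted p = 0.00857, edgeR) and rested on 266 counts over the 6 libraries. A lncRNA, ENSG00000289487, overlaps 145 exon bases of EGR2 on the same strand, and 3.15% of the 31-base words of EGR2 transcripts occur in other genes.

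EGR3 (ENSG00000179388, chromosome 8, 22687659 to 22693480), a relative of EGR1 studied in muscle spindles and lymphocytes, was close to the counting limit. It had 1, 7 and 0 counts in PEG and HS replicates 1 to 3 and 13, 14 and 13 in the Control replicates. Control libraries were close to each other, and 7 of the 8 PEG and HS counts came from replicate 2. The log2 ratio was -2.26 (SE 0.71, adjusted p = 0.0303, edgeR). The call was lost when any of 4 libraries was left out, with an adjusted p of 0.125 without PEG and HS replicate 1, 0.0860 without PEG and HS replicate 3, 0.0754 without Control replicate 1 and 0.0644 without Control replicate 2. Without PEG and HS replicate 2 the log2 ratio was -4.51 (adjusted p = 0.00164).

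EGR4, the remaining family member, was not among the 10 genes and had no count in any PEG and HS library against 12 counts over the 3 Control libraries. With 3 counts as the most that 0 would permit over the PEG and HS group, EGR4 was 3.99-fold lower. This takes the 12 Control counts as exact, so it is not a lower limit once their own counting error is included. It was called lower with an adjusted p of 0.0201 (edgeR), which became 0.0572 without PEG and HS replicate 1. The calls for EGR4 and EGR3 rest on few counts, whereas EGR1 was measured from 3879.

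NAB1 and NAB2 encode corepressors that bind EGR proteins, and NAB2 is itself an EGR target that closes a feedback loop. NAB2 had 26.4, 26.2 and 25.3 CPM with PEG and HS and 41.8, 38.2 and 39.7 CPM in Control. It was lower in each PEG and HS library, by 1.54-fold (log2 ratio -0.62, SE 0.047, adjusted p = 1.13e-07, edgeR). NAB1 was at 39.5 ± 0.623 CPM with PEG and HS and 40.1 ± 0.964 CPM in Control (log2 ratio -0.023, SE 0.040, adjusted p = 0.732) and did not pass.

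**Figure D3:**
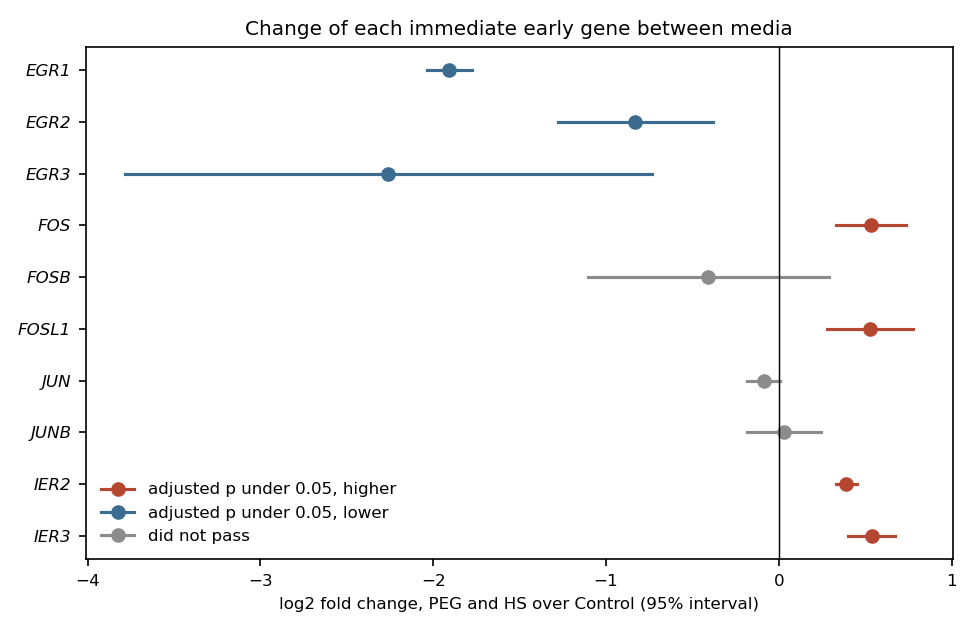
Log2 fold change of each immediate early gene, PEG and HS over Control, with its 95% interval from edgeR's fit (red higher, blue lower, grey not past the test). The intervals of EGR1, EGR2 and EGR3 lie below 0, those of FOS, FOSL1, IER2 and IER3 above 0, and those of FOSB, JUN and JUNB include 0.

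Among the FOS family, FOS and FOSL1 rose by nearly the same ratio and FOSB did not pass. FOS (ENSG00000170345, chromosome 14, 75278826 to 75282230) encodes the founding FOS protein, a partner of JUN in AP-1. It had 7.62, 6.72 and 7.33 CPM with PEG and HS and 4.93, 5.45 and 4.63 CPM in Control. The lowest PEG and HS library was above the highest Control library, and the rise was 1.45-fold (log2 ratio 0.53, SE 0.096, adjusted p = 0.000726, edgeR). No 31-base word of its transcripts occurs in another gene.

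FOSL1 (ENSG00000175592, chromosome 11, 65892049 to 65900573) encodes FRA1, whose gene and protein stability both respond to sustained ERK activity. It had 4.89, 5.27 and 4.93 CPM with PEG and HS and 3.04, 3.66 and 3.69 CPM in Control. The media did not overlap, and the rise was 1.44-fold (log2 ratio 0.53, SE 0.12, adjusted p = 0.00336, edgeR). Of its 31-base words 6.86% are shared, most with the pseudogene FOSL1P1, so a part of the counts depends on how shared reads were assigned.

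FOSB (ENSG00000125740, chromosome 19, 45467995 to 45475179), known for slow accumulation of a truncated form in neurons, had 0.623, 0.637 and 0.473 CPM with PEG and HS and 0.482, 0.954 and 0.831 CPM in Control. Control replicate 1 lay among the PEG and HS libraries and the other Control libraries above them. With 129 counts in all, the log2 ratio was -0.41 (SE 0.33, adjusted p = 0.410, edgeR), and its 95% interval of -1.11 to 0.29 leaves room for a fall or a rise. FOSL2, the fourth FOS gene, which encodes FRA2, was on the list of AP-1 partners and fell from 7.11 ± 0.631 to 4.77 ± 0.655 CPM (log2 ratio -0.58, SE 0.11, adjusted p = 0.00133). The FOS genes thus divided, with FOS and FOSL1 called higher and FOSL2 called lower.

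None of the JUN genes passed the test in edgeR. JUN (ENSG00000177606, chromosome 1, 58776845 to 58784048) encodes the JUN protein that pairs with FOS proteins and is phosphorylated by JNK. It had 37.8, 38.1 and 39.7 CPM with PEG and HS and 42.8, 41.1 and 39.0 CPM in Control. PEG and HS replicate 3 exceeded Control replicate 3, and the log2 ratio was -0.086 (SE 0.045, adjusted p = 0.184, edgeR). The 95% interval of the fold, 0.882 to 1.01, places any difference in JUN within a narrow range, as the gene had 7590 counts.

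JUNB (ENSG00000171223, chromosome 19, 12791486 to 12793315), a weaker activator that can counter JUN, had 5.58, 6.87 and 5.73 CPM with PEG and HS and 5.71, 5.91 and 6.07 CPM in Control. The highest and the lowest of the 6 values were both in PEG and HS. The log2 ratio was 0.031 (SE 0.10, adjusted p = 0.862, edgeR), with a 95% interval of the fold from 0.882 to 1.18, and it turned to -0.063 without PEG and HS replicate 2. HOOK2 overlaps 259 bases of JUNB on the opposite strand, and the strand setting of the counting is not given in the sources used here. JUND, the third JUN gene, which is less inducible and was listed with the AP-1 partners, had 118 ± 6.04 and 124 ± 7.60 CPM (log2 ratio -0.076, SE 0.045, adjusted p = 0.244).

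IER2 and IER3, named for immediate early response, were both called higher. IER5 and IER5L, which were not among the 10 genes, did not pass (log2 ratios -0.083 and -0.13, adjusted p = 0.427 and 0.576, edgeR). IER2 (ENSG00000160888, chromosome 19, 13150411 to 13154911) encodes a small nuclear protein and was the most counted of the 10 genes. It had 171, 178.2 and 171 CPM with PEG and HS and 131, 133 and 132 CPM in Control. The libraries of each medium were tightly grouped and far apart, with a rise of 1.31-fold (log2 ratio 0.39, SE 0.029, adjusted p = 7.29e-08, edgeR). A pair of lncRNAs on the opposite strand overlaps 662 and 946 of its exon bases.

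IER3 (ENSG00000137331, chromosome 6, 30743199 to 30744548) encodes a survival protein that ERK phosphorylates, and lies in the MHC region. It had 19.0, 18.5 and 20.7 CPM with PEG and HS and 13.3, 14.0 and 12.9 CPM in Control. All PEG and HS libraries exceeded all Control libraries, and the rise was 1.45-fold (log2 ratio 0.54, SE 0.064, adjusted p = 1.41e-05, edgeR). IER3-AS1 overlaps 440 of its 1350 exon bases on the opposite strand. FOS, FOSL1, IER2 and IER3 kept their call under each other tool, normalization and filter tried, under the replicate block and without any single library.

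**Figure D4:**
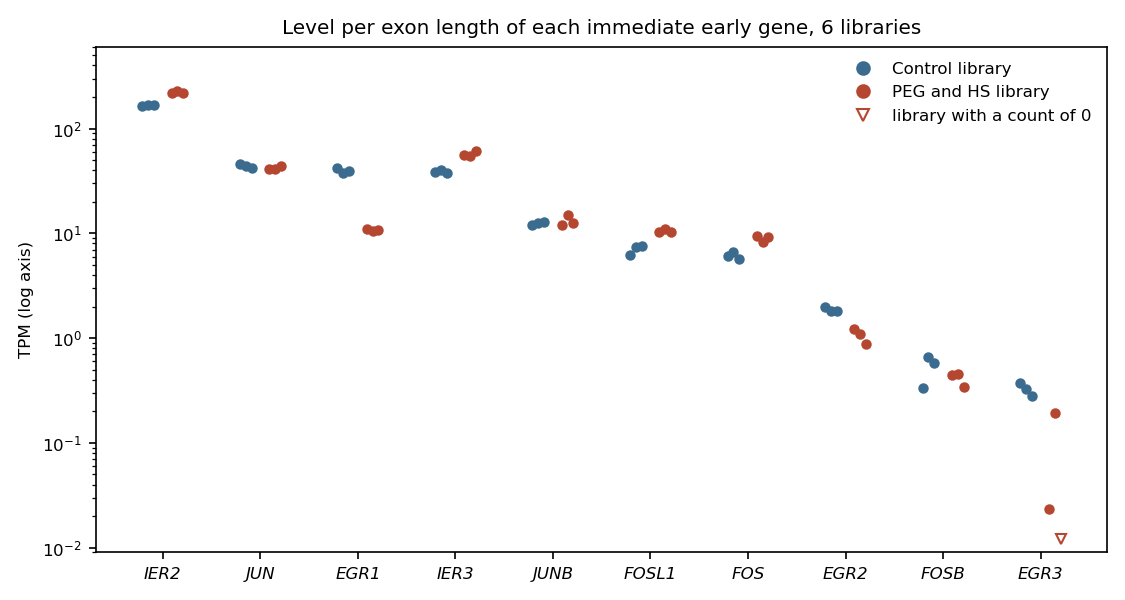
Level of each immediate early gene per exon length, in TPM on a log axis, for each library (blue Control, red PEG and HS, open triangle a count of 0), ordered by the Control mean. IER2 is highest in both media, and EGR1 drops from the range of JUN and IER3 in Control to that of FOSL1 in PEG and HS.

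To compare levels between genes, counts were divided by the length of all annotated exons of a gene and scaled to TPM, which gives each library the same total. In Control, IER2 stood highest at 166 ± 1.10 TPM. JUN (43.8 ± 1.95 TPM), EGR1 (39.7 ± 2.15 TPM) and IER3 (38.4 ± 1.34 TPM) followed, and JUN overlapped EGR1 as EGR1 did IER3. JUNB came next with 12.5 ± 0.407 TPM, then FOSL1 and FOS, whose libraries overlapped, at 7.11 ± 0.744 and 6.08 ± 0.464 TPM. EGR2 had 1.87 ± 0.0967 TPM, and FOSB and EGR3 were lowest and overlapped, at 0.527 ± 0.169 and 0.327 ± 0.0465 TPM. These values take each annotated exon as transcribed, so they understate genes whose longer isoforms are not used.

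In PEG and HS the order per length began with IER2 (223 ± 4.86 TPM), IER3 (56.9 ± 3.67 TPM) and JUN (42.0 ± 1.31 TPM), which did not overlap. JUNB had 13.1 ± 1.49 TPM. EGR1 had dropped to the fifth place with 10.8 ± 0.200 TPM and overlapped FOSL1, at 10.5 ± 0.413 TPM, which was above FOS at 8.97 ± 0.581 TPM. EGR2 (1.07 ± 0.173 TPM), FOSB (0.411 ± 0.0632 TPM) and EGR3 (0.0724 ± 0.106 TPM) closed the order in both media. The spread of the 10 genes between replicates of a medium, as chi-square of the counts per degree of freedom, ran from 0.553 for EGR2 to 3.43 for EGR3, where 1 is the value for counting error alone.

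Outside the 10 genes, the 5 genes whose pattern over the 6 libraries lay closest to EGR1 were PKDCC, APELA, PCDH18, ENSG00000283809 and GCNT1. Likeness was the root mean square difference of centred log2 CPM, among 10069 genes with a mean of at least 10 CPM over the 6 libraries. PKDCC, a secreted protein kinase, differed from EGR1 by 0.0674 on the log2 scale. It had 26.3, 28.6 and 26.8 CPM with PEG and HS and 110.0, 106 and 97.8 CPM in Control. APELA, which encodes the peptide ligand ELABELA, differed by 0.0756, and PCDH18, a protocadherin, by 0.0809. ENSG00000283809 differed by 0.0903, and GCNT1, a glycosyltransferase of O-glycan branching, by 0.103. All 5 had lower levels in each PEG and HS library, with log2 ratios from -1.94 to -1.73. This follows from their choice by likeness to EGR1 in the same libraries and is not a separate result.

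**Figure D5:**
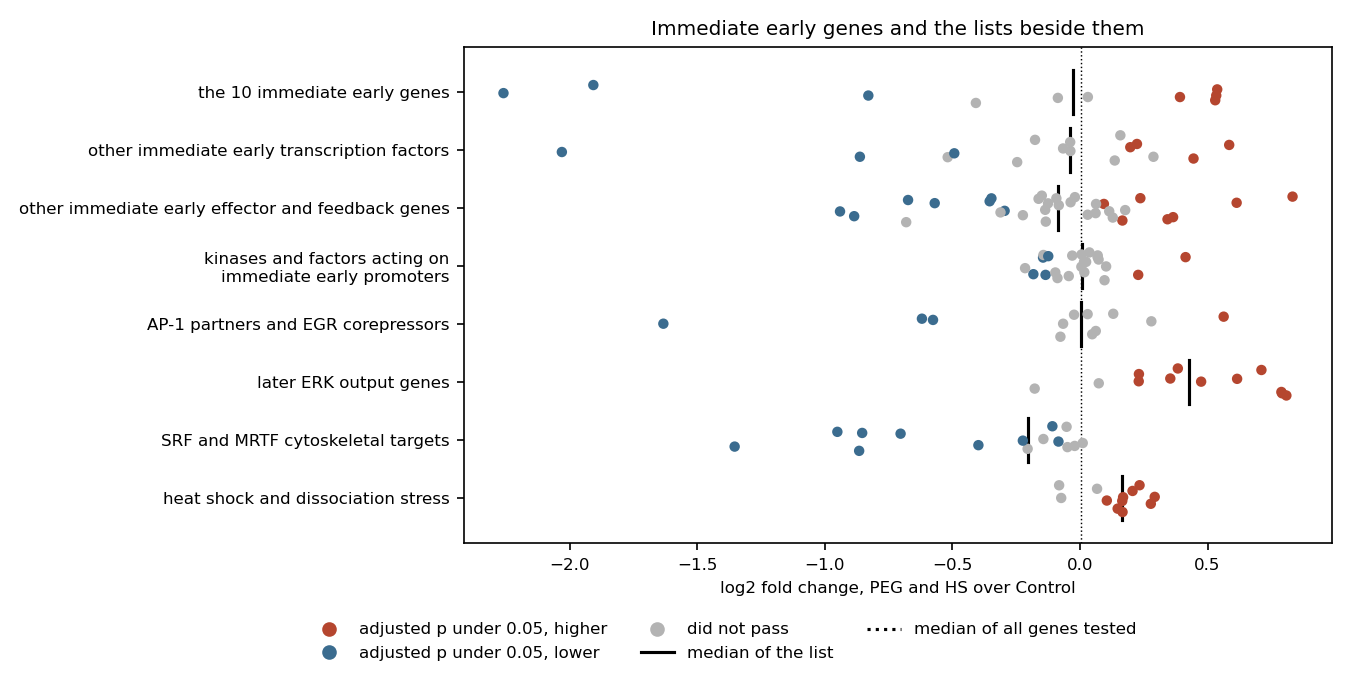
Log2 fold change, PEG and HS over Control, of the 10 immediate early genes and of the genes tested in 7 lists beside them (points, red higher, blue lower, grey not past the test), with the median of each list (bar) and of all genes tested (dotted line). EGR4, at 0 in PEG and HS, is not drawn. The median of later ERK output genes lies at 0.43 and that of SRF and MRTF cytoskeletal targets at -0.20.

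Other immediate early transcription factors were called in both directions. Of 17 listed genes, all tested, 4 were called higher and 4 lower (47.1% in all, against 25.3% of all genes tested), with a median log2 ratio of -0.038. BHLHE40, a repressor that also belongs to the clock, rose from 4.54 ± 0.531 to 6.84 ± 0.154 CPM (log2 ratio 0.58, SE 0.10, adjusted p = 0.000509, edgeR). MYC (log2 ratio 0.45), KLF10, a TGF-beta-induced factor (0.22), and CEBPB (0.20) rose as well, the last with an adjusted p of 0.0678 without PEG and HS replicate 3. KLF4 (log2 ratio -0.86) and CSRNP1, a nuclear protein induced by AXIN1 (-0.49, from 10.2 ± 0.943 to 7.32 ± 0.936 CPM), fell. The other called genes were EGR4 and NPAS4, a neuronal activity factor, which was below the CPM needed for naming and under the threshold in 5 of the 11 alternatives that gave it an adjusted p. ATF3, KLF6, NR4A1 and NFIL3, each above 10 CPM in every library, did not pass, with log2 ratios of -0.066, -0.038, 0.16 and -0.037.

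Among 32 immediate early genes with other functions, 7 were called higher and 7 lower, with a median log2 ratio of -0.088. In all, 43.75% of this list was called, against 25.3% of all genes tested. DUSP5, a nuclear phosphatase that inactivates ERK, had 44.7, 47.8 and 47.6 CPM with PEG and HS and 25.7, 27.5 and 25.4 CPM in Control. This rise of 1.78-fold (log2 ratio 0.83, SE 0.047, adjusted p = 4.01e-09, edgeR) was the largest among the genes of the list called higher. ARC, which encodes a capsid-like protein of synapses, rose from 15.6 ± 0.933 to 23.9 ± 1.76 CPM (log2 ratio 0.61, SE 0.065, adjusted p = 4.64e-06). SGK1 and PLK3, both kinases, rose with log2 ratios of 0.37 and 0.34, PLK3 with an adjusted p of 0.0691 in DESeq2.

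Among the genes of that list called lower, the log2 ratios of GADD45B, CCN2, CCN1 and BTG1 were furthest from 0. CCN1, a matricellular protein also called CYR61, had 16.6, 17.2 and 17.5 CPM with PEG and HS and 26.3, 28.5 and 26.99 CPM in Control. CCN2, its relative CTGF, had 12.5, 14.4 and 14.6 CPM with PEG and HS and 25.9, 28.9 and 21.8 CPM in Control. Both are known targets of SRF and of YAP and TAZ, and both were lower in each PEG and HS library (log2 ratios -0.67 and -0.88, SE 0.053 and 0.091, adjusted p = 1.79e-07 and 3.34e-06, edgeR). GADD45B, a stress sensor, fell from 2.89 ± 0.113 to 1.51 ± 0.129 CPM and BTG1, an antiproliferative factor, from 49.3 ± 2.10 to 33.3 ± 1.84 CPM. DUSP1, IER5 and RHOB, classical members of the class, did not pass (log2 ratios -0.15, -0.083 and -0.037).

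The kinases and factors that act on immediate early promoters were called about as often as other genes. Of 23 genes, 2 were called higher and 4 lower, 26.1% in all against 25.3% of all genes tested, and the median log2 ratio was 0.0064. The ternary complex factors, which sit beside SRF and are phosphorylated by ERK, differed among themselves. ELK3, which can act as a repressor, had 33.1, 32.2 and 34.5 CPM with PEG and HS and 25.3, 23.5 and 26.2 CPM in Control (log2 ratio 0.41, SE 0.052, adjusted p = 2.46e-05, edgeR) and ELK4 from 33.6 ± 1.66 to 39.4 ± 0.978 CPM (log2 ratio 0.23). ELK1 (log2 ratio -0.13) was lower, but its adjusted p was 0.142 without PEG and HS replicate 1.

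SRF itself went from 109 ± 1.81 to 99.0 ± 3.04 CPM (log2 ratio -0.14, SE 0.032, adjusted p = 0.00377, edgeR). MAPK3, which encodes ERK1 (log2 ratio -0.18), and MAP2K2, which encodes MEK2 (-0.12), were lower, the latter with an adjusted p of 0.0638 without PEG and HS replicate 1. MAP2K1, the JNK genes MAPK8 and MAPK9, MAPK14, CREB1 and the SRF cofactor genes MRTFA and MRTFB did not pass. These are transcript levels and say nothing of kinase activity, which was not measured.

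Of the 13 AP-1 partners and EGR corepressors, 12 were tested, of which 1 was called higher and 3 lower. These were 33.3% of those tested, against 25.3% of all genes tested. Besides NAB2 and FOSL2, MAF fell, a large bZIP factor, from 13.9 ± 1.64 to 4.47 ± 0.532 CPM (log2 ratio -1.63, SE 0.10, adjusted p = 1.37e-08, edgeR). BATF was not tested.

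Most later ERK output genes went the opposite way to EGR1. Of 12 genes, 10 were called higher and none lower by edgeR, and the same by DESeq2 and limma-voom. By edgeR this was 83.3% of the list, against 12.2% of all genes tested called higher. None was lower at an unadjusted p under 0.05, and CCND1 and DUSP4 did not pass the adjusted threshold. The median log2 ratio was 0.43 against 0.0031 for all genes tested. SPRY4, a feedback inhibitor of receptor tyrosine kinase signalling, had 325, 337 and 319.8 CPM with PEG and HS and 200.1, 180.4 and 187 CPM in Control, 1.73-fold higher (log2 ratio 0.79, SE 0.036, adjusted p = 2.47e-10, edgeR). ETV5, a PEA3 factor, rose from 45.5 ± 1.96 to 74.3 ± 0.212 CPM (log2 ratio 0.71), and DUSP6 and IL17RD were the other genes with the largest rises. In the same libraries, EGR1 was 3.75-fold lower. The list's direction was partly known from earlier results of these data and is given as a description.

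SRF and MRTF cytoskeletal targets, genes of the contractile and actin apparatus, were on the low side. Of 15 genes, 9 were called lower and none higher by edgeR, 60% of the list against 13.1% of all genes tested called lower. DESeq2 gave 8 lower and none higher, limma-voom 9 and none, and an unadjusted p under 0.05 gave 11 and none. In CPM, 7 of the called genes were separate between the media, whereas ACTG2 and ANKRD1 were called but overlapped. The median log2 ratio of the list was -0.20. TPM1, a tropomyosin, had 96.3, 92.9 and 96.0 CPM with PEG and HS and 238, 246 and 245 CPM in Control, 2.55-fold lower (log2 ratio -1.35, SE 0.029, adjusted p = 2.08e-13, edgeR). TAGLN, or transgelin, fell from 31.1 ± 3.003 to 17.1 ± 1.10 CPM (log2 ratio -0.87) and MYL9, a myosin light chain, from 37.2 ± 3.30 to 20.6 ± 0.552 CPM (log2 ratio -0.85). ACTA2 was lower (log2 ratio -0.40), with an adjusted p of 0.105 without PEG and HS replicate 3. TPM2, VCL and ACTG1 were called lower by less (log2 ratios -0.22, -0.11 and -0.084), and ACTB, TAGLN2, CNN2 and FLNA did not pass.

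Immediate early genes are also induced when cells are dissociated or handled, so heat shock and dissociation stress genes were counted in the same libraries. Of 12 genes, 9 were called higher and none lower by edgeR, 75% of the list against 12.2% of all genes tested called higher. DESeq2 gave 8 higher and none lower, and limma-voom 9 and none. At an unadjusted p under 0.05, 10 were higher and 1 lower, and the median log2 ratio of the 12 genes was 0.17. Their summed level was 7693 to 8085 CPM with PEG and HS and 6941 to 7118 CPM in Control. The largest rise was in BAG3, a cochaperone (25.1 ± 0.699 to 30.8 ± 0.990 CPM, log2 ratio 0.29, SE 0.048, adjusted p = 0.000315, edgeR), followed by HSPH1 (0.28), HSPA1B (0.23) and HSPD1 (0.21). HSPA1A, a near-identical copy of HSPA1B, did not pass (log2 ratio -0.073), and reads of the pair can be exchanged. The part of these genes in the rise of FOS, FOSL1, IER2 and IER3 was not tested.

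Markers of other cell types were counted as well. All 8 neuroectoderm markers were called lower in PEG and HS, against 13.1% of all genes tested, with a median log2 ratio of -1.49. Their summed level was 579 to 615 CPM against 789 to 816 CPM in Control. This sum was mostly NES, which had 543 ± 20.5 CPM with PEG and HS and 643 ± 14.0 CPM in Control (log2 ratio -0.24). SOX1, OLIG3, LHX5 and OTX2 of this list had already been reported as lower in these data by the authors. The direction of the neuroectoderm list was thus partly known and is given as a description. Of 8 fibroblast and mesenchyme markers, 4 were called lower and 1 higher, 62.5% in all against 25.3% of all genes tested. Their sum was 470.3 to 503 CPM with PEG and HS and 387 to 420 CPM in Control. It was mostly THY1, the marker called higher, singled out after its values were seen. The higher sum therefore does not describe COL1A1, COL3A1, LUM and DCN, the markers of this list called lower. Of the 8 mesoderm and primitive streak markers and of the 8 trophectoderm and amnion markers, 2 each were called lower, with CDX2 and CGA too low to test. For mesoderm this share, 2 of 8, was near the 25.3% of all genes tested, and for trophectoderm and amnion it was 33.3% of those tested. The sums of the mesoderm and the trophectoderm lists were 8.42 to 9.75 and 6.98 to 7.21 CPM with PEG and HS. In Control they were 10.0 to 11.6 and 14.9 to 15.7 CPM. None of the 8 endoderm markers was called by edgeR, DESeq2 or limma-voom (1 was lower at an unadjusted p under 0.05), with SOX17 and GATA4 too low to test, and of the 8 blood and endothelium markers, of which 6 were tested, 1 was called higher (16.7% of those tested, below that of all genes). CGA was at 0 in all libraries. The part of these cell types in the fall of EGR1, EGR2 and EGR3 was not tested.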

How the data were processed

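Bulk RNA of 6 libraries was measured. The authors made stranded libraries from polyadenylated RNA and, per the labels, used Trim Galore 0.6.7 and STAR 2.6.1 on GRCh38. They deposited raw counts per Ensembl gene, 1 library per file, with no normalization and with genes at 0 kept. The counting tool, its strand setting and its annotation are not given in the sources used here. Symbols, coordinates and exon lengths came from GENCODE 44, which matched 19916 of 19977 identifiers.

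Genes with at least 10 counts were scaled with TMM (factors 0.994 to 1.006) and tested in R 4.3.3 with edgeR 4.0.16 (glmQLFit, glmQLFTest, no covariate), adjusted over all genes tested. The SE of a log2 ratio is its size divided by the root of the F statistic. Alternatives were DESeq2 1.42.0, limma-voom (limma 3.58.1), other normalizations and filters, the replicate number as a block, and each library left out. The steps were tested on simulated data.

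The neuroectoderm markers include genes that the authors had reported as lower in these data. The 10 genes, the 7 lists and the motifs were also chosen with earlier results of these data known. From each list, up to 4 genes per direction were named, by absolute log2 ratio, among those called, without overlap and at or above 1 CPM in all libraries of the medium where they were higher. Any further gene was singled out with its values known. Depth, 26991279 to 36185138 counts, limits genes under about 1 CPM, such as EGR3. Results for some genes of the lists are not reported here.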

Additional observations from a re-analysis of the deposited data

How the results depend on the processing

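The counts of genes called stayed within 1.5 times of the reported ones under all 13 alternatives, from 3114 to 4444 for all genes, 4 for immediate early genes called higher and 2 to 3 for those called lower. With a library left out, all genes called ranged from 3114 to 3674, other immediate early genes from 18 to 20 and genes of the 5 further lists from 31 to 39. EGR3 lost its call without PEG and HS replicate 1 or 3 and without Control replicate 1 or 2, with fewer samples and counts in each case. JUNB, which was not called, ranged from -0.063 (without PEG and HS replicate 2) to 0.087 on the log2 scale with a library left out. The other 8 genes kept direction and side of the threshold. Of 36 genes named from the lists, 31 stayed under the threshold in every setting. Same-numbered libraries showed little shared deviation (Pearson's r across genes -0.044, 0.0068 and 0.070), and differently numbered ones ran from -0.099 to 0.089. Replicates of a medium differed little, so these values cannot show whether the numbers pair the libraries. The replicate block gave 4444 calls in all, with 4 immediate early genes higher and 3 lower. DESeq2 called 3367 genes. Other scalings moved the median log2 fold change of all genes to 0.0014 and 0.012, from 0.0031.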
